A study of Mus musculus with 20 samples.

Results

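The expression of 8 genes of the angiotensin and endothelin systems was described in the heart apex of mice with cardiac light chain (AL) amyloidosis and of 2 kinds of mice without deposits. The genes were Agt, Ace, Agtr1a and Nr3c2 for the angiotensin and aldosterone side, and Edn1, Ece1, Ednra and Ednrb for the endothelin side. They were taken by gene symbol, and all 8 were found among the 25308 genes of the table and were tested. Of these 8 genes, Agtr1a, which encodes the angiotensin II receptor of the heart and vessels, was lower in AL mice than in both other groups, by 0.71 (SE 0.187) against Ctrl and by 0.85 (SE 0.216) against LS on the log2 scale. Nr3c2, the mineralocorticoid receptor gene, was lower in AL mice than in LS mice, but its difference from Ctrl mice did not pass the test. In the first run, which held all LS mice, AL differed from Ctrl by -0.03 on the log2 scale. All 4 LS mice lay above the 4 Ctrl mice of that run for Nr3c2, but LS against Ctrl did not pass edgeR's test. The share of all genes that separate in this way was not counted. The 4 endothelin genes did not pass edgeR's test with run in the model.

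AL mice (n = 9) were λS-DH mice (genotype DH-lambdaS) with amyloid deposits in the heart. LS mice (n = 4) had the same genotype and were not induced, and had no deposits. Ctrl mice (n = 7) were of the DH background without the human gene. In λS-DH mice a human λ light chain sequence sits at the mouse Ig kappa locus, so that it is made by B lineage cells and reaches the heart through the blood, and all 3 groups share the DH-LMP2A background, which makes no Ig heavy chains. Deposits in this model are started by 1 intravenous injection of the variable domain of the same light chain, as sonicated fibrils or in soluble form. The labels do not give which form or time applied to which AL mouse, nor the age or sex of a mouse, and the study used adult mice of both sexes.

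Angiotensinogen, the product of Agt, is made mainly by the liver and is cut by renin to angiotensin I, which angiotensin converting enzyme (Ace) on endothelial cells turns into angiotensin II. Angiotensin II acts on the type 1 receptor (Agtr1a) to contract vessels and to drive aldosterone release, and aldosterone acts on the mineralocorticoid receptor (Nr3c2), a nuclear receptor that cardiac myocytes also carry. Endothelin 1 (Edn1) is a peptide of endothelial cells that is released from its precursor by endothelin converting enzyme (Ece1), and that acts on the receptor Ednra of muscle and mural cells and on the receptor Ednrb, which endothelial cells also use to clear the peptide. Both systems are targets of drugs in heart failure and hypertension. Peptide levels, enzyme activities and receptor proteins were not measured here, only RNA.

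Levels are given as CPM, the counts of a gene per 1e6 counts of its library, after scaling of the libraries by the TMM method. The labels place the mice in 2 batches, which the study describes as sequencing runs. The first run held 15 mice with total counts of 43.99 to 62.7 (in units of 1e6) each, and the second held AL8, AL9, Ctrl5, Ctrl6 and Ctrl7, with 7.87 to 11.8 in the same unit, so that levels of these 5 mice carry more counting error. All LS mice were in the first run. Ventricular myocyte markers (7 genes, led by Myh6 and Myl2) summed to 44088 to 72705 CPM over the 20 mice and lung markers to no more than 1.80 CPM. Liver markers (20 genes, led by Alb and Serpina3k) summed to 6.76 to 57.1 CPM in AL mice, 14.3 to 272 in LS mice and 8.17 to 400 in Ctrl mice, and the 5 mice with the most Alb were Ctrl1, Ctrl3, Ctrl4, LS1 and LS3. By Xist against 4 Y-linked genes, 8 mice were of female type (AL2 to AL4, LS2, LS3 and Ctrl1 to Ctrl3) and 12 of male type, with all mice of the second run among the latter. This is a split made from the data, and the labels do not give sex.

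The 5′ sequences are shown for Agt and Nr3c2, the genes at the ends of the hormone chain. They were chosen because the 2 AL and 3 Ctrl mice of the second run did not overlap for Agt, and Nr3c2 differed between AL and LS mice. Both run from 250 bases before to 50 bases after a start annotated by RefSeq on GRCm38.p6, in which 7 of the 8 genes had an entry and Agtr1a had none. The RefSeq start of Nr3c2 lies downstream of the start of the gene in GENCODE M21, so that the 2 annotations differ in where the gene begins. Capitals mark a TATA box (TATAAA), and the AP-1 motif (TGANTCA), the steroid receptor half-site (AGAACA) and the GATA motif (AGATAA) were also searched on both strands, with no overlap between matches.
Agt, minus strand, chr8:124569657-124569956: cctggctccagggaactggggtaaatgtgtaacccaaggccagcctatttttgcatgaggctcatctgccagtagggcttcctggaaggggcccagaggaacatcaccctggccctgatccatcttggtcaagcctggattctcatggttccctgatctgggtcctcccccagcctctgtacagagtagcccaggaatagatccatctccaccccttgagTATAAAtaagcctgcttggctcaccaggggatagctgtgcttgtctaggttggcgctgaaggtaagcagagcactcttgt
Nr3c2, plus strand, chr8:76902080-76902379: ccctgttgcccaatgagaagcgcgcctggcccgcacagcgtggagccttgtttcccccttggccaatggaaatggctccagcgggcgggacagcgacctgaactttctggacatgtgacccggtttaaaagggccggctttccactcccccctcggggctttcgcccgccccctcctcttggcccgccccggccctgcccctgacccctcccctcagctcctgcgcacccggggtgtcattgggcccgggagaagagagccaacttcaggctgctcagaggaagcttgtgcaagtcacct

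The Agt sequence held a TATA box 30 bases before the start, a motif found in 13.6% of the 32851 promoter entries of this length. None of the 4 motifs was found in the Nr3c2 sequence, which is richer in G and C (65.7% against 54.7% in Agt, with a median of 52.7% over all entries). Of the others, the half-site (19% of all entries) was found in Ednrb and in 1 of 4 Ece1 entries, the GATA motif (11.2%) in Edn1 and a TATA box on the minus strand in 1 of 2 Ace entries, and no AP-1 motif (7.81% of all entries) was found. These matches describe letters only, and binding was not measured.

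Per kilobase of exon, the order of the mean levels over the 20 mice was Ece1, Ednra, Ace, Agtr1a, Ednrb, Nr3c2, Agt and Edn1. Ece1 had a mean of 15.2 ± 2.47 CPM per kb (SD, n = 20) and Edn1 a mean of 1.10 ± 0.318, so that the converting enzyme of the endothelin system was the most abundant RNA of the 8 and its peptide gene the least abundant. Neighbours in this order mostly did not separate. Ece1 was above Ednra in 14 mice, Ednra above Ace in 14, Ace above Agtr1a in 11 and Nr3c2 above Agt in 11 of the 20 mice. Agtr1a was above Ednrb, and Agt above Edn1, in 18 of the 20 mice each, and Ednrb was above Nr3c2 in 17. The Ednra level per kb exceeded that of Ednrb in every mouse, with a median ratio of 3.55 (range 1.97 to 4.86) in AL mice, 2.57 (2.04 to 3.69) in LS mice and 3.04 (1.74 to 3.60) in Ctrl mice.

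**Figure D1:**
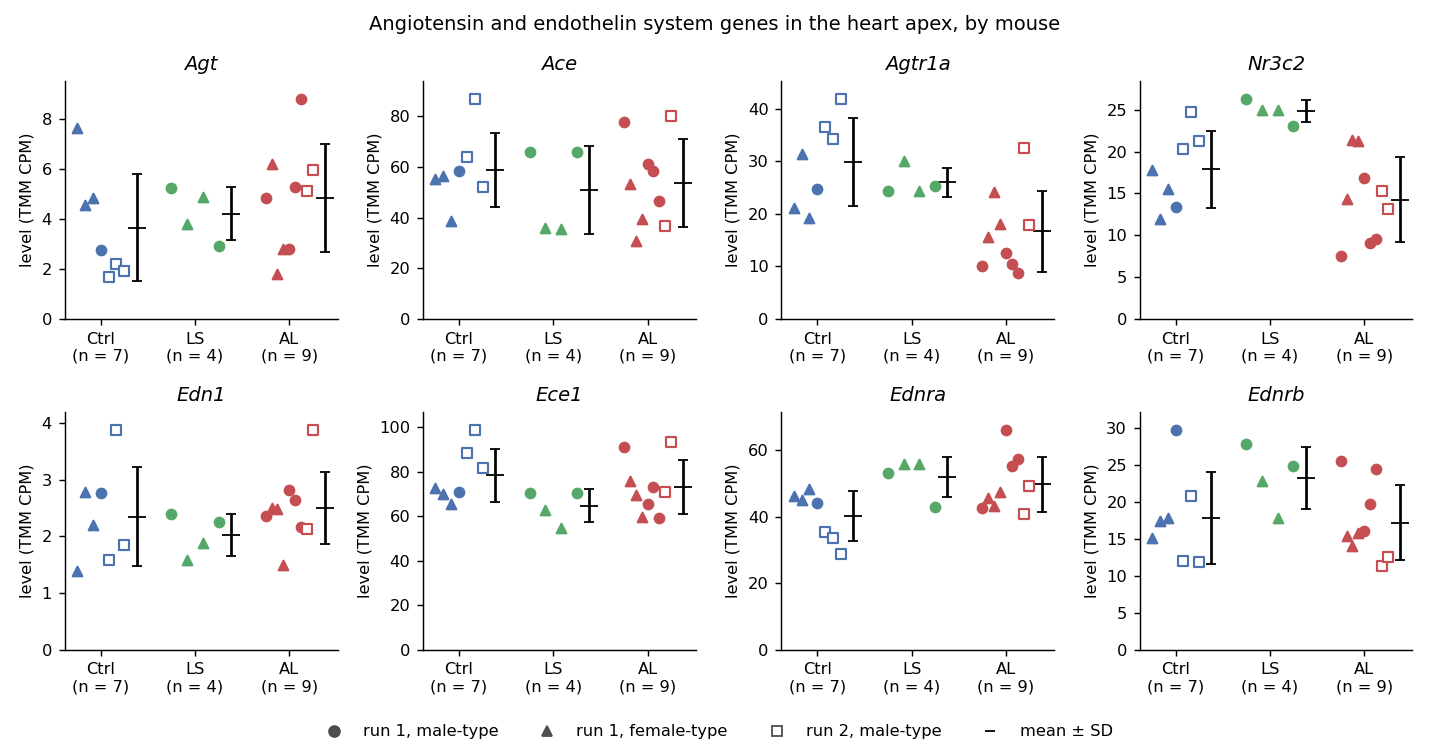
Level of each of the 8 genes in every mouse (y axis, TMM CPM) for Ctrl, LS and AL mice (x axis), with symbols for sequencing run and for male or female type by sex-linked RNA, and bars for the mean and SD of the group. In the Agtr1a panel 8 of the 9 AL mice lie below all 4 LS mice, and in the Nr3c2 panel all 9 do.

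A gene was called where the FDR (the Benjamini-Hochberg adjusted p of edgeR's quasi-likelihood test over all 14477 tested genes, with run in the model) was under 0.05 and the absolute log2 fold change (log2FC) at least 0.58. For AL against Ctrl, which asks what differs in hearts with amyloid, 1 of the 8 genes was called (Agtr1a), where 7.81% of all tested genes were called. At an FDR under 0.05 alone the count was also 1 of 8, against 26.2% of all genes. For AL against LS, where both groups carry the human light chain, 2 of 8 were called (Agtr1a and Nr3c2) against 8.9% of all genes, and the count at an FDR under 0.05 was the same, against 23.4%. For LS against Ctrl, which asks what the light chain does without deposits, edgeR called 0 of 8 and 0.0207% of all genes, 1 of the 8 (Nr3c2) had an unadjusted p under 0.05 (0.0215), and DESeq2 called 0 of 8. AL mice enter both AL comparisons, which are therefore not independent. Where groups are said below not to overlap, or to lie wholly above or below each other, the share of all genes that do so was not counted.

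**Figure D2:**
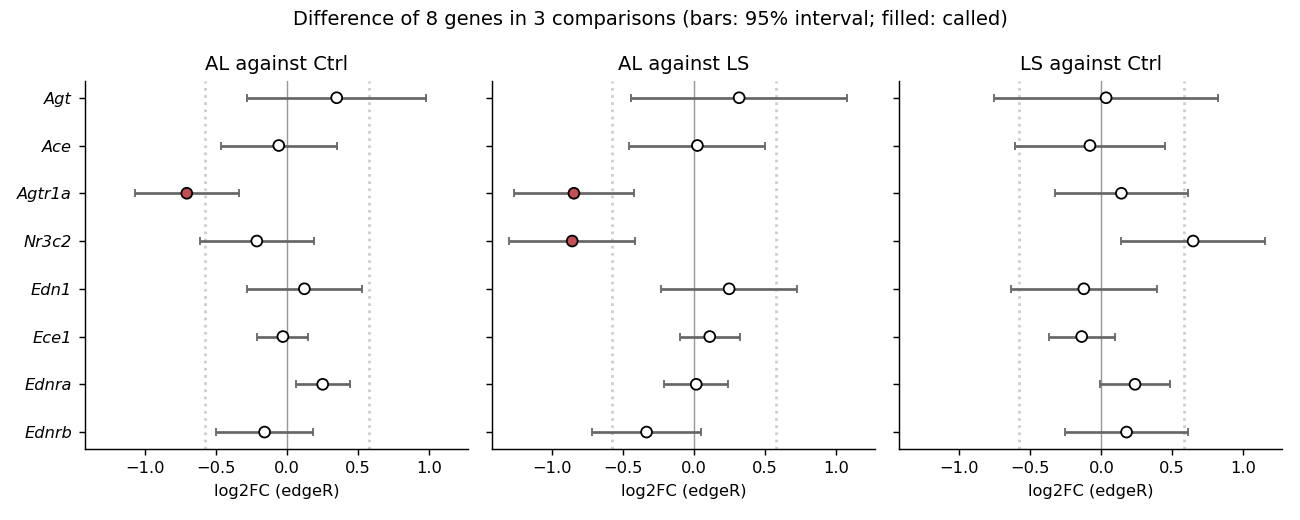
Log2FC (x axis, edgeR) of the 8 genes (y axis) in the 3 comparisons, with 95% intervals and dotted lines at the fold threshold, and filled points for called genes. Agtr1a is filled in both AL panels and Nr3c2 only in the panel against LS, where both lie near -0.85.

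Agt (ENSMUSG00000031980, chromosome 8, 124556534 to 124569706, minus strand, GRCm38) was present at a low level in every heart, with 17 to 398 counts per mouse. In AL mice the lowest level was 1.81 CPM (AL3), the median 5.10 and the highest 8.81 (AL7). LS mice had 5.22, 3.81, 4.89 and 2.91 CPM (LS1 to LS4), and Ctrl mice a lowest of 1.67 (Ctrl5), a median of 2.77 and a highest of 7.63 (Ctrl1). The groups overlapped over the whole range, and AL against Ctrl gave a log2FC of 0.35 (SE 0.321, FDR 0.446). Within the second run the groups, of 2 and 3 mice, did not overlap: AL8 and AL9 had 5.10 and 5.94 CPM and Ctrl5 to Ctrl7 had 1.67, 2.19 and 1.92 CPM. Agtr1a, Nr3c2 and Ednra did not overlap in these 5 mice either, and the share of all genes without overlap was not counted. The log2FC of Agt was 1.57 in the second run (FDR 0.177) and -0.09 in the first (FDR 0.877). The difference between runs was 1.61 on the log2 scale (SE 0.673, FDR 0.271 in edgeR's interaction test). That test gave an FDR under 0.05 for 0 of the 8 genes and for 0.701% of the 13835 genes tested, and of the 8 an unadjusted p under 0.05 for Agt alone. In male-type mice alone the log2FC of Agt was 1.28 (FDR 0.0409) and in female-type mice alone -0.65 (FDR 0.394), and the difference between the types had an FDR of 0.565 in edgeR's interaction test. Of the 4 male-type Ctrl mice, 3 were Ctrl5 to Ctrl7 of the second run, with 17, 22 and 25 counts of Agt. The male-type fit therefore shares most of its Ctrl mice with the second-run difference and is not separate from it.

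Because the liver is the main source of Agt, its level was set beside the liver markers. The 3 Ctrl mice of the second run had the lowest liver marker sums of their group (8.17 to 10.3 CPM) and the lowest Agt of their group. AL8 and AL9 of the same run had liver sums of 6.76 and 9.38 CPM, with 5.10 and 5.94 CPM of Agt. The median liver sum of AL mice was also low, at 11.97 CPM, and AL7 had the highest Agt of all 20 mice with a liver sum of 12.1 CPM and 1.88 CPM of Alb. Ctrl1, with the second highest Agt (7.63 CPM), had a liver sum of 387 CPM. Ctrl3 had 215 CPM of Alb, the most of the 20 mice, and 4.84 CPM of Agt. The part of liver RNA in the Agt level was not tested. With the liver marker level as a covariate the log2FC of AL against Ctrl was 1.15 (FDR 0.0351).

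**Figure D3:**
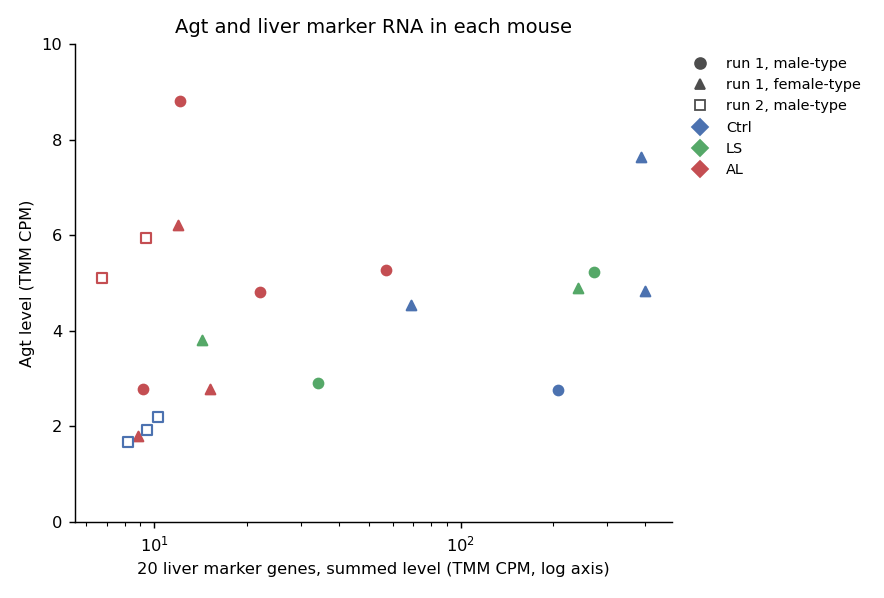
Agt level (y axis, TMM CPM) against the summed level of 20 liver markers (x axis, TMM CPM, log scale) in each of the 20 mice, by group, run and sex type. AL mice reach 8.81 CPM of Agt at liver sums of at most 57.1 CPM, and the 3 Ctrl mice of the second run lie at the lower left, under 2.2 CPM of Agt.

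Ace (ENSMUSG00000020681, chromosome 11, 105967945 to 105989964, plus strand) did not pass the test in any comparison. AL mice ranged from 30.9 (AL3) to 80.2 CPM (AL9) with a median of 53.3, LS mice had 65.9, 35.9, 35.7 and 65.9 CPM (LS1 to LS4), and Ctrl mice ranged from 38.5 (Ctrl3) to 86.9 CPM (Ctrl6) with a median of 56.5. The 3 ranges overlapped. The log2FC was -0.06 (SE 0.209, FDR 0.869) against Ctrl and 0.02 (SE 0.244, FDR 0.960) against LS, with 95% intervals of -0.47 to 0.35 and -0.46 to 0.50. Within LS mice the 2 of female type had 35.7 and 35.9 CPM and the 2 of male type 65.9 CPM each, and in the AL mice of the first run the 3 of female type had 30.9 to 53.3 CPM and the 4 of male type 46.7 to 77.6 CPM.

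Agtr1a (ENSMUSG00000049115, chromosome 13, 30336441 to 30382867, plus strand) encodes the receptor through which angiotensin II acts on the cardiovascular system, and its RNA is known in the heart mainly from pericytes and fibroblasts. AL1 to AL9 had 10.15, 15.6, 24.1, 18.1, 12.6, 10.4, 8.68, 32.5 and 17.8 CPM. LS1 to LS4 had 24.3, 29.998, 24.4 and 25.2 CPM, and Ctrl1 to Ctrl7 had 21.1, 31.3, 19.3, 24.7, 36.5, 34.3 and 41.9 CPM. All AL mice but AL3 and AL8 were below every Ctrl mouse, and all but AL8 were below every LS mouse. The mean was 16.7 ± 7.68 CPM (SD, n = 9) in AL mice, 25.97 ± 2.72 (n = 4) in LS mice and 29.9 ± 8.43 (n = 7) in Ctrl mice.

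The log2FC of Agtr1a was -0.71 against Ctrl (SE 0.187, FDR 0.0101) and -0.85 against LS (SE 0.216, FDR 0.00922), which are levels 0.613 and 0.556 times those of the other group. LS and Ctrl mice differed by 0.14 (SE 0.240, FDR 0.969). The level in Ctrl mice was higher in the second run (34.3 to 41.9 CPM) than in the first (19.3 to 31.3 CPM), and AL8, with 32.5 CPM, lay below its own run's Ctrl mice. Within the first run all 7 AL mice were below all 4 LS mice and 6 of 7 below all 4 Ctrl mice, with a log2FC against Ctrl of -0.75 (FDR 0.0283). Within the second run both AL mice were below the 3 Ctrl mice, with a log2FC of -0.54 (FDR 0.393). The difference between runs was 0.17 (SE 0.451, FDR 0.898).

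Agtr1a was lowest in the 4 male-type AL mice of the first run, which had 8.68 to 12.6 CPM, where LS1, LS4 and Ctrl4, the male-type mice of that run without deposits, had 24.3, 25.2 and 24.7 CPM. The 3 female-type AL mice had 15.6 to 24.1 CPM, the 3 female-type Ctrl mice 19.3 to 31.3 CPM and the 2 female-type LS mice 24.4 and 29.998 CPM, so that AL and Ctrl overlapped there. In male-type mice alone the log2FC against Ctrl was -0.85 (FDR 0.0236) and in female-type mice alone -0.30 (FDR 0.432). The difference between the types did not pass the test (-0.57, SE 0.321, FDR 0.721 in edgeR's interaction test).

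In whole tissue, fewer cells of a type and less RNA per cell cannot be told apart. Pericyte markers summed to 668 to 1412 CPM in AL mice, 1324 to 1447 in LS mice and 939 to 1385 in Ctrl mice. Of the 8 pericyte markers 2 were lower in AL than in Ctrl mice and 0 were higher at an FDR under 0.05. Abcc9, which encodes a potassium channel subunit of pericytes and of muscle, had a log2FC of -0.84 (FDR 0.000338) while Rgs5, the most abundant pericyte marker, had -0.02 (FDR 0.925). Of the 9 fibroblast markers none passed in either AL comparison (edgeR), and their sum was 637 to 3028 CPM in AL, 1963 to 2225 in LS and 1235 to 2231 in Ctrl mice. Of the 7 ventricular myocyte markers 2 were lower in AL mice in both comparisons and 0 were higher, and their sum was 44088 to 71596 CPM in AL, 58842 to 65793 in LS and 56274 to 72705 in Ctrl mice. These were Myh6, the alpha myosin heavy chain gene, with -0.33 (FDR 0.0225) against Ctrl and -0.46 (FDR 0.0107) against LS, and Pln, phospholamban, with -0.44 (FDR 0.0135) and -0.47 (FDR 0.0233), named here after its values were seen. The part of these cells in the lower Agtr1a level was not tested. Without Ctrl1, Ctrl3, Ctrl4, LS1 and LS3, the mice with the most Alb, the log2FC of Agtr1a was -0.82 against Ctrl (FDR 0.0745) and -0.90 against LS (FDR 0.0897), so that the sizes were kept and the calls were not.

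Nr3c2 (ENSMUSG00000031618, chromosome 8, 76899442 to 77245012, plus strand) encodes the receptor for aldosterone, a transcription factor that also binds corticosterone. AL1 to AL9 had 7.54, 14.4, 21.4, 21.2, 16.9, 9.06, 9.58, 15.3 and 13.1 CPM. LS1 to LS4 had 26.3, 25.03, 24.98 and 23.1 CPM, with the smallest spread of the 3 groups, and Ctrl1 to Ctrl7 had 17.8, 11.98, 15.5, 13.3, 20.4, 24.8 and 21.3 CPM. All 9 AL mice were below all 4 LS mice, but AL8 and AL9 come from the second run, which held no LS mouse. The 8.9% of all genes called in this comparison is not a share of genes without overlap, which was not counted. AL and Ctrl mice overlapped. The log2FC was -0.86 against LS (SE 0.226, FDR 0.0108) and -0.21 against Ctrl (SE 0.205, FDR 0.469), with a 95% interval of -0.61 to 0.19 for the latter. LS against Ctrl gave 0.65 (SE 0.259, FDR 0.794), and within the first run the 4 LS mice (23.1 to 26.3 CPM) lay above the 4 Ctrl mice (11.98 to 17.8 CPM).

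Against Ctrl, Nr3c2 differed by -0.03 in the first run (FDR 0.944), and by -0.59 in the second (FDR 0.282), in which AL8 and AL9, with 15.3 and 13.1 CPM, were below the Ctrl mice, with 20.4 to 24.8 CPM. The difference between the runs was -0.61 (SE 0.473, FDR 0.574). By sex type the 4 male-type AL mice of the first run had 7.54 to 16.9 CPM and the 3 female-type AL mice 14.4 to 21.4 CPM. The log2FC against Ctrl was -0.49 (FDR 0.179) in male-type and 0.34 (FDR 0.283) in female-type mice, with an FDR of 0.637 for the difference.

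Agtr1a and Nr3c2 were low in the same AL mice. The mice AL1, AL6 and AL7 had under 10.5 CPM of Agtr1a and under 9.6 CPM of Nr3c2, levels that no LS or Ctrl mouse had for either gene. Over the 20 mice, after removal of the run difference, the log2 CPM values of the 2 genes had a Pearson r of 0.709, a description in which the mice share libraries and groups. No other pair of the 8 genes except Ace and Ece1 (r = 0.764) reached 0.6. Agt was negatively related to both receptors (-0.469 with Agtr1a and -0.456 with Nr3c2).

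**Figure D4:**
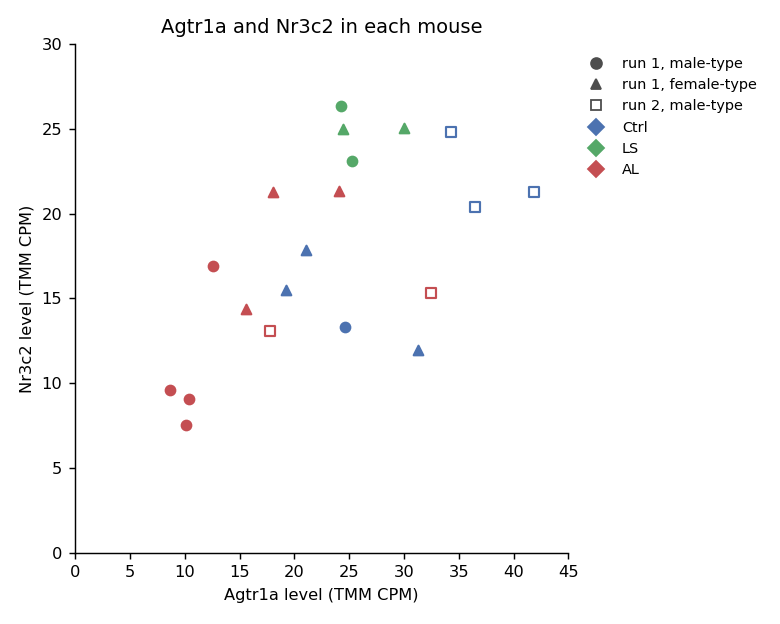
Nr3c2 level (y axis) against Agtr1a level (x axis), both in TMM CPM, with 1 symbol for each of the 20 mice, coloured by group and shaped by run and sex type. The male-type mice AL1, AL6 and AL7 lie at the lower left, under 10.5 CPM of Agtr1a and 9.6 CPM of Nr3c2, and the 4 LS mice lie between 23.1 and 26.3 CPM of Nr3c2.

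Edn1 (ENSMUSG00000021367, chromosome 13, 42301476 to 42307990, plus strand) was the least abundant of the 8 genes, with 16 to 149 counts per mouse. AL mice ranged from 1.499 (AL4) to 3.87 CPM (AL9) with a median of 2.48, LS mice had 2.39, 1.58, 1.87 and 2.25 CPM, and Ctrl mice ranged from 1.39 (Ctrl1) to 3.88 CPM (Ctrl6) with a median of 2.19. The highest levels in both groups belonged to mice of the second run, and the groups overlapped. The log2FC was 0.12 (SE 0.206, FDR 0.700) against Ctrl and 0.25 (SE 0.244, FDR 0.492) against LS, with 95% intervals of -0.28 to 0.53 and -0.23 to 0.72.

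Ece1 (ENSMUSG00000057530, chromosome 4, 137862237 to 137965229, plus strand) had a median of 70.8 CPM in AL mice (59.2 in AL7 to 93.2 in AL9) and of 72.4 CPM in Ctrl mice (65.3 in Ctrl3 to 98.9 in Ctrl6). LS1 to LS4 had 70.5, 62.9, 54.8 and 70.2 CPM. It had the narrowest interval of the 8 genes in AL against Ctrl, with a log2FC of -0.03 (SE 0.0915, 95% interval -0.21 to 0.15, FDR 0.850), and against LS the log2FC was 0.11 (SE 0.108, FDR 0.489). The 3 Ctrl mice of the second run (81.8 to 98.9 CPM) lay above the 4 of the first (65.3 to 72.4 CPM).

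Ednra (ENSMUSG00000031616, chromosome 8, 77663031 to 77724464, minus strand) encodes the receptor through which endothelin 1 contracts vascular muscle. AL mice ranged from 40.8 (AL8) to 66.2 CPM (AL5) with a median of 47.5, LS mice had 53.1, 55.9, 55.7 and 42.95 CPM, and Ctrl mice ranged from 28.7 (Ctrl7) to 48.3 CPM (Ctrl3) with a median of 44.1. Of the 9 AL mice 4 were above every Ctrl mouse. The log2FC against Ctrl was 0.25 (SE 0.0978, 95% interval 0.06 to 0.44), and with an FDR of 0.0642 in edgeR it did not pass. It had an FDR of 0.0388 without AL1, 0.0398 without AL3, 0.0444 in DESeq2 and 0.0423 with the liver markers as a covariate, always below the fold threshold (0.28, 0.28, 0.26 and 0.38). Within the second run AL8 and AL9 (40.8 and 49.4 CPM) were above the 3 Ctrl mice (28.7 to 35.5 CPM), and within the first run the groups overlapped, with 42.6 to 66.2 CPM in AL and 44.1 to 48.3 CPM in Ctrl mice. Against LS the log2FC was 0.01 (SE 0.116, FDR 0.945).

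Ednrb (ENSMUSG00000022122, chromosome 14, 103814625 to 103844402, minus strand) ranged from 11.3 (AL8) to 25.5 CPM (AL1) with a median of 15.7 in AL mice. LS1 to LS4 had 27.8, 22.8, 17.8 and 24.8 CPM, and Ctrl mice ranged from 11.8 (Ctrl7) to 29.8 CPM (Ctrl4) with a median of 17.5. Of the 9 AL mice 6 were below every LS mouse, 2 of them in the second run, which held no LS mouse. The log2FC was -0.34 against LS (SE 0.197, FDR 0.226) and -0.16 against Ctrl (SE 0.174, FDR 0.533). With Xist as a covariate it was -0.44 against LS, with an FDR of 0.0464 in edgeR. Endothelial markers, 12 genes led by Fabp4 and Flt1, summed to 807 to 2020 CPM in AL, 1017 to 1212 in LS and 1077 to 1371 in Ctrl mice, and 2 of them were higher in AL mice in both comparisons.

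Other genes of the angiotensin and aldosterone side were examined through a list of 31 genes, of which 21 were tested. At an FDR under 0.05, 2 were higher and 4 lower in AL than in Ctrl mice, and 3 higher and 4 lower than in LS mice. These are 6 and 7 of 21 genes, where 26.2% and 23.4% of all tested genes had such an FDR, so that the counts alone do not set the list apart. The median log2FC of the tested genes was 0.13 against Ctrl and 0.07 against LS, where it was 0.01 over all genes in both comparisons. Peptidases fell by small amounts. Lnpep, an aminopeptidase that binds angiotensin IV, had a log2FC of -0.38 (FDR 0.00348) against Ctrl and -0.37 (FDR 0.0104) against LS. Nln, neurolysin, which cuts angiotensin I and other peptides, had -0.41 (FDR 0.00653) and -0.42 (FDR 0.0153). Prep, a prolyl peptidase, had -0.22 (FDR 0.0242) against Ctrl. Ctsa, a lysosomal carboxypeptidase, rose by 0.34 (FDR 0.000257) against Ctrl and by 0.27 (FDR 0.00455) against LS.

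Among regulators of receptor signalling, Rgs2, which dampens signals of angiotensin and endothelin receptors, was lower than in LS mice (-0.69, SE 0.167, FDR 0.00623), while against Ctrl it had -0.26 (FDR 0.199). Arrb2, an arrestin that uncouples activated receptors, was higher than in LS mice (0.74, SE 0.170, FDR 0.00493) and than in Ctrl mice (0.45, FDR 0.0274). The third gene higher than in LS mice was Bdkrb2, a bradykinin receptor (0.93, FDR 0.0342), which is named outside the rule for named genes because its list count is small. Kng1, the kininogen gene, had a log2FC of -4.36 against Ctrl (FDR 0.00558) and -3.88 against LS (FDR 0.0128). It is a gene of the liver, was at most 5.41 CPM, and was highest in Ctrl3, LS3 and Ctrl1, 3 of the 5 mice with the most Alb.

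Ren1 had at most 3 counts in any mouse and Agtr2 at most 8, so that renin and the type 2 angiotensin receptor were at or near the floor of this depth. Hsd11b2, the gene of the enzyme that shields the mineralocorticoid receptor from corticosterone, had at most 16 counts. Its highest level was 1.38 CPM, above the floor of 3 counts (at most 0.381 CPM), and its mean was 0.218 CPM in AL, 0.0944 in LS and 0.125 in Ctrl mice. That highest level was in an AL mouse, and the AL mean rests largely on it. None of these genes was tested.

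Of 13 further genes of the endothelin side, 10 were tested. At an FDR under 0.05, 0 were higher and 2 lower in AL than in Ctrl mice, and 1 was higher and 2 lower than in LS mice, with median log2FC of -0.13 and -0.06. These are 2 and 3 of 10 genes, beside 26.2% and 23.4% of all tested genes. Mme, neprilysin, a peptidase that degrades endothelin and natriuretic peptides, had a log2FC of -0.48 (SE 0.115, FDR 0.00549) against Ctrl and -0.44 (SE 0.129, FDR 0.0210) against LS. Gnaq, a G protein subunit through which Agtr1a and Ednra signal, had -0.29 (SE 0.0494, FDR 0.000633) and -0.31 (SE 0.0565, FDR 0.00116). Gna11, another G protein subunit gene of this list, is named outside the rule for named genes. It had -0.02 (FDR 0.825) and -0.06 (FDR 0.437). Edn3, another endothelin peptide gene, had means of 10.1 CPM in AL, 3.04 in LS and 5.55 in Ctrl mice, with a log2FC of 1.43 (SE 0.495, FDR 0.0429) against LS and 0.87 (SE 0.387, FDR 0.103) against Ctrl. Mesothelial markers, 4 genes led by Msln and Upk3b, were higher in AL mice for 3 of 4 in both comparisons and summed to 15.4 to 211 CPM in AL, 6.84 to 21.2 in LS and 12.8 to 31.3 in Ctrl mice, and their part in the Edn3 level was not tested. Ece2 had a log2FC of 0.27 against Ctrl (FDR 0.771).

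**Figure D5:**
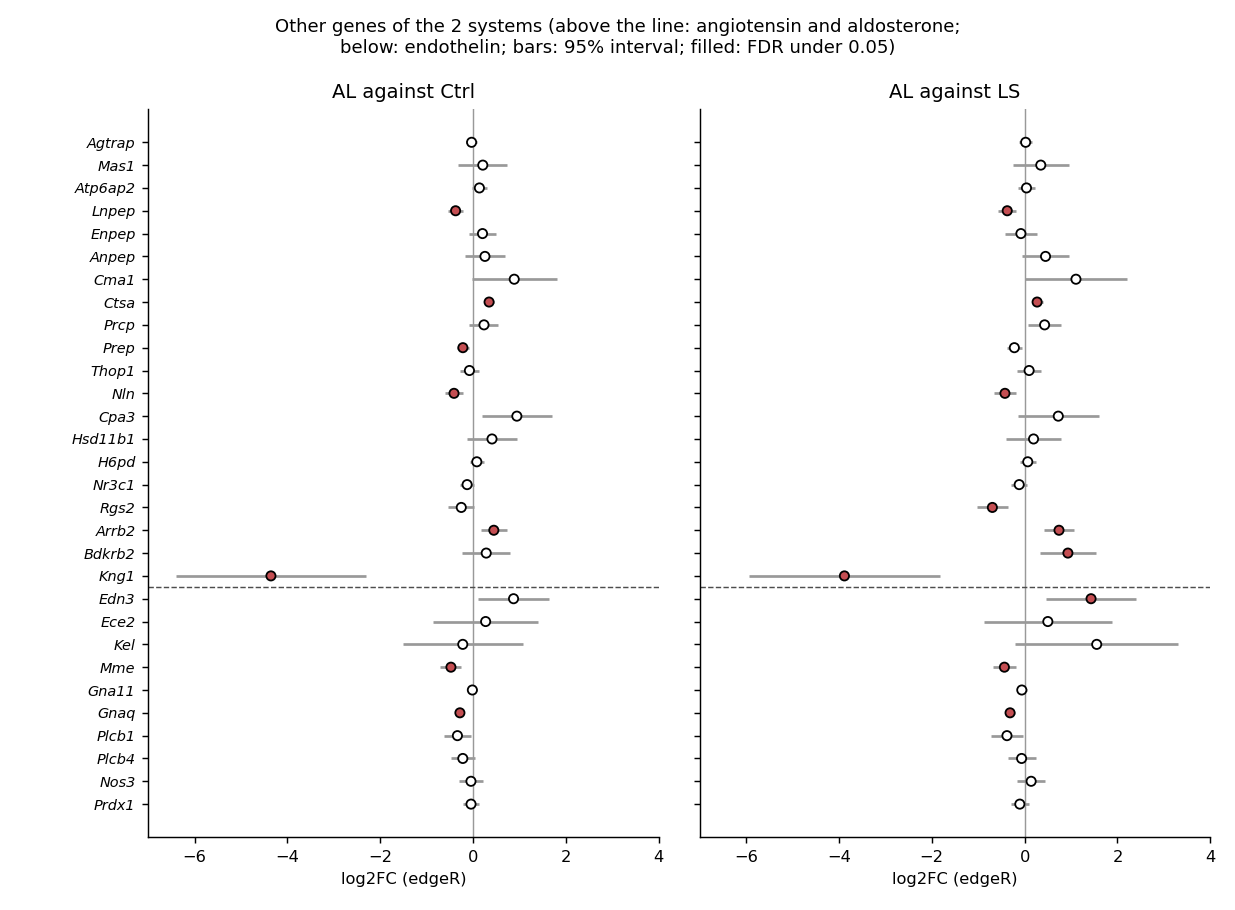
Log2FC (x axis, edgeR) with 95% intervals of 30 of the 31 other tested genes of the angiotensin and aldosterone side (above the dashed line) and of the endothelin side (below), for AL against Ctrl (left) and AL against LS (right), with filled points at an FDR under 0.05. Most differences are under 1, and Kng1 stands apart near -4.

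Genes known to respond to these hormones were examined through a list of 25, all of them tested. At an FDR under 0.05, 3 were higher and 1 lower in AL than in Ctrl mice, and 2 higher and 1 lower than in LS mice, with median log2FC of 0.31 and 0.29. These are 4 and 3 of 25 genes, smaller shares than the 26.2% and 23.4% of all tested genes. Zbtb16, a transcription factor induced by corticosteroid receptors, had a log2FC of -0.94 (SE 0.159, FDR 0.000535) against Ctrl and -0.58 (FDR 0.0272) against LS. Lcn2, a secreted iron carrier protein that aldosterone can induce, had 1.68 (SE 0.483, FDR 0.0160) and 1.93 (FDR 0.0298). The natriuretic peptide genes Nppa and Nppb had 2.72 (FDR 0.00153) and 1.30 (FDR 0.0151) against Ctrl, and 1.14 (FDR 0.191) and 0.20 (FDR 0.771) against LS. Acta1, skeletal muscle actin, a gene of the stressed heart, was higher than in LS mice (1.5, FDR 0.0412). Against Ctrl its log2FC was 0.42 (FDR 0.535), with means of 426 CPM in AL, 153 in LS and 300 in Ctrl mice. Sgk1, Fkbp5, Per1 and Tsc22d3, common targets of corticosteroid receptors, had log2FC of -0.04, -0.08, -0.20 and -0.19 against Ctrl, and none passed.

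The genes whose log2 CPM was most alike to each of the 8 over the 20 mice, with the run difference removed, were found among all tested genes. For Agtr1a they were Mylk3, a kinase of myosin light chain in cardiac myocytes (Pearson r = 0.952), Pitpnc1 (0.950) and Prdm16os (0.932), the highest values of the 8. For Nr3c2 they were Nhsl1 (0.878) and Magi3 (0.874). Ace was most like Ppl (0.909), Dpep1 (0.898) and Cnn3 (0.898), and Ece1 was most like Sema3g (0.839), App (0.812) and Stim1 (0.808). For Agt they were Csdc2 (0.870), Hs6st1 (0.814) and Cdkn1a (0.813). Ednrb was most like Hnrnpf (0.837), Hnrnpa3 (0.834) and Resf1 (0.810), Edn1 like Steap4 (0.798), Stk36 (0.775) and Mfsd14b (0.769), and Ednra like Hectd2os (0.776) and Clic5 (0.771). All these values share the same libraries and groups and are descriptions.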

How the data were processed

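RNA from the apical part of the heart of 20 mice was sequenced from polyadenylated, strand-marked libraries. According to their methods, the authors aligned paired-end reads to GRCm38 with STAR and estimated gene counts with Salmon in the nf-core workflow. The deposited table holds these estimated counts for 25308 genes, without adjustment for run, and 14.2% of the values were not whole. They were rounded. Genes kept by filterByExpr (minimum count 10) were scaled by TMM and tested with glmQLFit and glmQLFTest of edgeR 4.0.16 (R 4.3.3), with group and run in the model. Nothing in the sources used here ties the mice to litters or days. The floor of 3 counts is 0.0479 to 0.381 CPM and covers counting error only. The estimated counts of 1 gene can include reads of near-identical sequence.

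The 8 genes and all lists were chosen with earlier results of these data known. Named from the lists were up to 5 genes per list and comparison by lowest FDR (4 for hormone targets), 6 fixed genes, and the 1 or 2 most abundant markers. A few genes that this rule names are not reported here. At an FDR under 0.05 in AL against Ctrl (edgeR), marker counts were 1 of 6 smooth muscle and 1 of 8 macrophage genes. They were 0 of 5 mast cell, 0 of 5 adipocyte and 3 of 3 atrial genes. For ventricular myocytes the count was 2 of 7 and for lung 0 of 1. In AL against LS the counts, in the same order, were 0, 0, 0, 1, 1, 2 and 1.

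Alternatives were DESeq2 1.42.0, RLE scaling, ComBat-seq (sva 3.50.0) or no term for the run, each run by itself, a block for the mouse number, a stricter filter (10 counts in all mice) or none, Xist or liver markers as covariates, leaving out the 5 mice with the most Alb or each mouse, and fits of 2 groups. Fits of male-type or female-type mice alone were chosen after seeing the data. Coordinates and exon lengths came from GENCODE M21 on GRCm38. Correlations used log2 CPM (prior count 2) after removal of the run difference with limma 3.58.1. The tests were tested on simulated data. Figures were drawn with matplotlib in Python. The authors' ComBat-adjusted values, amyloid scores and echocardiography were not used here.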

Additional observations from a re-analysis of the deposited data

Results flagged for a closer look

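In each group of 4 to 9 mice, the distance of the highest and the lowest mouse from its neighbour was set against the group's whole range for the 8 genes, 24 groups in all, by Dixon's criterion. It marked 1 value, the Agtr1a level of 29.998 CPM in LS2, which was the highest of the 4 LS mice, with the other LS mice between 24.3 and 25.2 CPM. Chance marks about 1 in 20 such groups. LS2 lay further from the mean of the AL mice (16.7 CPM) than the other LS mice did, though nearer to AL8 (32.5 CPM). Without LS2 the Agtr1a log2FC of AL against LS was -0.78 (FDR 0.0358 in edgeR).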

How the results depend on the processing

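The 8 genes gave 1 called gene for AL against Ctrl, and 0 with the second run alone, with the replicate block, without Ctrl1, Ctrl3, Ctrl4, LS1 and LS3 and in female-type mice alone. The count was 2 in male-type mice alone and with the liver covariate, where Agt joined Agtr1a. At an FDR under 0.05 alone it was 0 under the same 4 settings, 2 in DESeq2 and in male-type mice, 3 with the liver covariate, and 1 to 2 when each mouse was left out (2 without AL1 and without AL3, where Ednra joined). For AL against LS both counts were 2, the count at an FDR under 0.05 was 3 with the Xist covariate, where Ednrb joined, and both were 1 without a run term (Nr3c2) and with the replicate block (Agtr1a), and 0 without the 5 mice with the most Alb and in female-type mice alone. Agtr1a kept its direction under every alternative in both AL comparisons (-0.95 to -0.30 against Ctrl, FDR 0.00171 to 0.432, and -1.15 to -0.48 against LS, FDR 0.00161 to 0.249), as did Nr3c2 against LS (-1.23 to -0.38, FDR 0.00292 to 0.260), and leaving out any 1 mouse changed neither call. Over all tested genes, 1130 were called for AL against Ctrl, 16 in the second run alone, 502 without the 5 mice with the most Alb and 587 with at least 10 counts in every mouse. Mice that share a number were not paired by the labels. Of 15 such pairs 3 had correlated deviations over 0.1 (-0.154 to 0.231), so that the replicate block only describes these numbers.

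Genes that changed sign were not called in that comparison, and why they did was not tested. For AL against Ctrl the log2FC became 0.0080 for Ace, -0.092 for Agt and 0.018 for Ece1 in the first run alone. With the replicate block it became -0.34 for Agt, 0.095 for Nr3c2, -0.039 for Edn1, -0.034 for Ednra and 0.077 for Ece1, and in female-type mice alone -0.65 for Agt, 0.34 for Nr3c2 and -0.023 for Ednra. For AL against LS, Ace became -0.050 with ComBat-seq, -0.040 with the Xist covariate, -0.13 in male-type mice alone and -0.031 with the replicate block. Ednra became -0.037 with ComBat-seq, -0.058 without a run term, -0.011 in the first run alone, -0.022 with only the 2 groups compared, -0.28 in female-type mice alone and -0.21 with the replicate block, and Agt became -0.25 in female-type mice alone and -0.17 with the replicate block. For LS against Ctrl, Agt became -0.014 with at least 10 counts in every mouse, -0.24 in the first run alone and with only the 2 groups compared, -0.39 in female-type mice alone and -0.17 with the replicate block, while Ace became 0.0042 with ComBat-seq and 0.056 in male-type mice alone, Agtr1a became -0.19 without a run term and Ednrb -0.10 in male-type mice alone. With each mouse left out, the ranges that crossed zero for AL against Ctrl were -0.16 to 0.063 for Ace, -0.079 to 0.025 for Ece1 and -0.24 to 0.0011 for Ednrb. Those for AL against LS were -0.12 to 0.16 for Ace and -0.075 to 0.054 for Ednra, and those for LS against Ctrl were -0.23 to 0.056 for Ace and -0.081 to 0.33 for Agt. The second run had a lower depth and only 5 mice, and Edn1 and Agt had as few as 16 and 17 counts there.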
